A study of Mus musculus with 2 samples.

Results

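*Oca2*, *Klhl14*, *Gramd1b* and *Fam129a* are 4 genes outside the steroid synthesis pathway whose RNA stood among the leading genes of the fetal Leydig nuclei of the mouse testis. They were found by their symbols among the 32285 genes counted, and all 4 had a row of their own. The values that chose them were RNA levels in Leydig nuclei against other interstitial nuclei of this same library. Their RNA contrast between those classes is therefore given as a description only. The sample was whole testis of mouse embryos at E14.5, which carried *Nr5a1-cre* and *Rosa-tdTomato*, a Cre driven by the promoter of a gene of steroidogenic and supporting cells together with a fluorescent reporter. All nuclei share that genotype, and no wild-type, mutant or treated group stands beside them. RNA and open chromatin were read from the same nuclei by single-nucleus multiome sequencing, in 1 RNA library and 1 ATAC library with no replicate. Intervals in brackets are exact 95% intervals that cover counting error only, and the sources used here do not give the number of embryos pooled.

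Fetal Leydig cells take up cholesterol, move it into the mitochondrion and turn it into androgen, and CYP11A1 makes the first cut of the cholesterol side chain. The 4 genes have other known roles. *Oca2* encodes the P protein, an anion transporter of the melanosome that is known from oculocutaneous albinism. *Klhl14* encodes a Kelch protein, a family of which many members present substrates to the ubiquitin ligase CUL3. *Gramd1b* encodes Aster-B, a sterol carrier of the endoplasmic reticulum that takes accessible cholesterol from the plasma membrane. *Fam129a*, named *Niban1* in RefSeq, encodes a stress-induced protein that has been tied to control of translation.

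In GRCm38 (mm10), *Oca2* (ENSMUSG00000030450) lies on chromosome 7 at 56239760 to 56536518, on the plus strand. *Gramd1b* (ENSMUSG00000040111) lies on chromosome 9 at 40293233 to 40531383, on the minus strand, and its annotated starts are spread over 185093 bases. *Fam129a* (ENSMUSG00000026483) lies on chromosome 1 at 151571186 to 151721939, on the plus strand. 3 stretches of 200 bases show what open chromatin the genes had in Leydig-like nuclei. The first is the run of bases just before the start of *Oca2*, inside the peak that covers that start (chr7:56239560-56239759, plus strand). The second is the middle of an intronic peak of *Gramd1b* that lay 70.4 kb inside its first start (chr9:40460847-40461046, minus strand). The third is the middle of an intronic peak of *Fam129a* 89.1 kb inside its first start (chr1:151660387-151660586, plus strand). Capitals mark matches to 5 motifs searched on both strands, with a match on the opposite strand shown as its reverse complement: CAAGGNCA for NR5A1, the orphan receptor of steroidogenic cells, AGATAA for GATA factors, TGANTCA for AP-1, TGACGTCA for CREB, and AGGTCA, the core of many nuclear receptor sites, which the NR5A1 letters can hold.
Oca2 before its start: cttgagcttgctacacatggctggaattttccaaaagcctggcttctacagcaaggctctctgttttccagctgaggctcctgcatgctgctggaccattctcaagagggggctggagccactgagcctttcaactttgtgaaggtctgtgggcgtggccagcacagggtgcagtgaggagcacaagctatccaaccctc
Gramd1b intronic peak: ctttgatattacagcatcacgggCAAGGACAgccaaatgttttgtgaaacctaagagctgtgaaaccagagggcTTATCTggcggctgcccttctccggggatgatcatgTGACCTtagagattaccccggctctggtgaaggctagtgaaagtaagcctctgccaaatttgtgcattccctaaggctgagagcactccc
Fam129a intronic peak: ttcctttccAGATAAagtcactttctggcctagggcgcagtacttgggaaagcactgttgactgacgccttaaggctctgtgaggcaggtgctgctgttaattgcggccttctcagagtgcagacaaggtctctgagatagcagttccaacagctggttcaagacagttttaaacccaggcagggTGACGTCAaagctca

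Counted from the first base shown, the *Gramd1b* stretch held an NR5A1 match at base 24, a GATA match at base 75 and an AGGTCA match at base 111. The *Fam129a* stretch held a GATA match at base 10 and a CREB match at base 186. No motif of the 5 matched the *Oca2* stretch. Among the 200-base middles of all 109183 peaks of at least that length, 13.1% held the NR5A1 letters, 12.2% GATA, 6.11% AP-1, 0.613% CREB and 16.3% AGGTCA. In the 200 bases before the start of 32851 RefSeq promoters, the shares were 4.29% for NR5A1, 7.80% for GATA, 5.48% for AP-1, 1.47% for CREB and 11.4% for AGGTCA. A match is a run of letters and was not tested as a bound site.

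The matrix held 9833 barcodes with 122049390 RNA molecules (UMIs) and 38243814 transposase cuts over 109215 peaks, and the fragment list held 58448458 unique fragments. After filters on quality and removal of the highest doublet scores, 7198 nuclei were kept, with medians of 7948 UMIs and 1720 fragments at peaks. Another 875 of the kept nuclei lay over the automatic doublet threshold, and levels without them are given beside those that moved by over 1.5 times. Clusters were made without the 4 genes, *Cyp11a1* or the peaks near them, and were named from other marker genes. The Leydig-like class of 797 nuclei held 4524 UMIs per 1000000 UMIs of the class (CPM) summed over the 7 Leydig markers, against 622 CPM in the next highest class. The summed markers of other classes in Leydig-like nuclei included 39.8 CPM of Sertoli, 30.4 CPM of germ, 12.9 CPM of immune and 764 CPM of progenitor genes, the last against 2385 CPM in progenitor-like nuclei. The comparison class, progenitor-like, had 755 nuclei and was led by cell-cycle genes. The largest cluster, of 2517 nuclei, had the highest summed progenitor markers (2602 CPM) but also a contractile gene among its leading genes, so it stayed unnamed and is shown beside the comparison class. A cluster of 86 nuclei led by *Pax8*, *Kcnh7* and *Gabrg3* stayed unnamed too and is called the *Pax8* cluster. Its summed supporting markers were the highest of any cluster, at 3200 CPM, of which *Ncam1* gave 2494 and *Pax8* 683. By the naming rule mesonephric tubule markers scored slightly above them. The paper annotated its own *Pax8*-positive cluster as supporting-like cells.

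*Oca2* RNA was highest in Leydig-like nuclei, at 367 CPM [355 to 380] from 3249 UMIs. It was found in 592 of the 797 nuclei. The *Pax8* cluster came next at 106 CPM [87.9 to 127], with UMIs in 35 of its 86 nuclei. Progenitor-like nuclei held 1.56 CPM [0.80 to 2.72] and the largest unnamed cluster 1.62 CPM [1.06 to 2.37], the lowest of the 12 clusters over all kept nuclei. The ratio of Leydig-like to progenitor-like levels was 236, or 7.88 on the log2 scale. It rested on 12 UMIs in the progenitor-like class, and it ranged from 29.3 to 292 over other ways of clustering and filtering. Between these ends lay Sertoli-like nuclei at 5.19 CPM, mesonephric mesenchyme-like nuclei at 3.50 CPM and surface epithelium-like nuclei at 3.01 CPM, whose intervals overlapped. Of the 51 Sertoli-like UMIs 42 were in nuclei over the automatic doublet threshold, and without those nuclei that class was lowest, at 1.28 CPM. Immune-like nuclei held 5.85 CPM from 4 UMIs, or 15.4 CPM without nuclei over the threshold. Endothelial-like nuclei (23.6 CPM) and pericyte-like nuclei (21.6 CPM) had 54 of 55 and 14 of 15 of their UMIs in nuclei over the threshold, and held 1.89 CPM and 2.02 CPM without them. In erythroid-like nuclei the 46.9 CPM came from 19 UMIs, of which 17 were in 1 nucleus, and it was 87.2 CPM without nuclei over the threshold. Germ-like nuclei held 17 CPM, and 87.4% of those UMIs were in the 23.5% of them that lay over the automatic doublet threshold. Without such nuclei the germ-like level was 3.98 CPM, whereas the *Pax8* cluster held 123 CPM and Leydig-like nuclei 419 CPM.

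*Klhl14* (ENSMUSG00000042514, chromosome 18, 21550377 to 21654718, minus strand) had 2 clusters at the same height. The *Pax8* cluster held 161 CPM [138 to 186] and Leydig-like nuclei 159.6 CPM [151 to 168], a ratio of 1.01 [0.86 to 1.18]. UMIs of *Klhl14* were found in 57 of 86 nuclei of the *Pax8* cluster and in 467 of 797 Leydig-like nuclei. Without nuclei over the automatic doublet threshold the levels were 213 CPM and 186 CPM, a ratio of 1.14 [0.95 to 1.36]. With clusters from RNA alone the ratio was 1.19 [1.01 to 1.40]. The rest of the testis stood far lower. Immune-like nuclei held 19.0 CPM from 13 UMIs in 4 nuclei, or 38.4 CPM without nuclei over the threshold, and germ-like nuclei 8.97 CPM, which fell to 1.18 CPM without nuclei over the threshold. Progenitor-like nuclei held 3.50 CPM [2.31 to 5.09] and the largest unnamed cluster 2.11 CPM [1.46 to 2.95]. Sertoli-like nuclei held 4.58 CPM and surface epithelium-like nuclei 2.84 CPM, which fell to 1.42 CPM and 1.15 CPM without such nuclei. Endothelial-like nuclei (15.0 CPM) and pericyte-like nuclei (5.76 CPM) had no UMI outside nuclei over the threshold. Mesonephric mesenchyme-like nuclei had 1 UMI, and the 45 erythroid-like nuclei had none, for which the exact interval reaches 9.10 CPM. The Leydig-like to progenitor-like ratio of 45.6 (log2 5.51) ranged from 20.8 to 75.5 over the alternatives. A noncoding gene on the opposite strand within *Klhl14*, *4930426D05Rik*, followed it, with 27.6 CPM in Leydig-like nuclei, 37.3 CPM in the *Pax8* cluster and 0.130 CPM in progenitor-like nuclei. The authors counted at the default settings of Cell Ranger ARC, which assign reads to genes by strand. Whether the counts of such antisense genes hold reads from RNA of the gene they overlap was not tested.

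The *Pax8* cluster was the highest non-Leydig cluster for *Oca2* and *Klhl14*. Without nuclei over the automatic doublet threshold its *Oca2* interval (97.9 to 153) overlapped that of erythroid-like nuclei (51.7 to 138). Of the 19 erythroid-like UMIs over all kept nuclei 17 were in 1 nucleus, a spread between nuclei that such an interval does not cover. The *Pax8* cluster ranked 5 of 12 for *Gramd1b* and 7 of 12 for *Fam129a*. In the same 86 nuclei *Gramd1b* was at 313 CPM, or 168 CPM without nuclei over the threshold, and *Fam129a* at 49.1 CPM, against 6295 CPM and 1797 CPM in Leydig-like nuclei. Of the 54 *Fam129a* UMIs there, 52 were in the 17 nuclei over the automatic doublet threshold, and without those nuclei the level was 3.0 CPM. The corresponding share was 232 of 344 UMIs for *Gramd1b*, 102 of them in 1 nucleus, 35 of 177 for *Klhl14* and 35 of 117 for *Oca2*. *Cyp11a1* stood at 63.6 CPM in the cluster, or 39.0 CPM without the nuclei over the threshold, close to the 45.7 CPM of the largest unnamed cluster without its own such nuclei. UMIs of both *Oca2* and *Klhl14* were found in 25 nuclei of the cluster. *Oca2* was seen in 43.9% [30.7 to 57.6] of its nuclei with *Klhl14* and in 34.5% [17.9 to 54.3] of those without, and these intervals overlap.

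*Gramd1b* had the largest count of the 4 genes. Leydig-like nuclei held 6295 CPM [6243 to 6348] from 55697 UMIs, with a UMI in 796 of 797 nuclei. Unlike the other genes it had a second level of its own in Sertoli-like nuclei, at 540 CPM [525 to 554], with UMIs in 780 of 830 nuclei. That level was 545 CPM without nuclei over the automatic doublet threshold, so it did not rest on them. Pericyte-like nuclei (555 CPM) had an interval that overlapped it and endothelial-like nuclei (448 CPM [421 to 476]) lay below it, yet 93.8% and 99.0% of their UMIs were in nuclei over the threshold, and the remaining levels were 48.5 CPM and 18.9 CPM. Progenitor-like nuclei held 166 CPM [157 to 175], the largest unnamed cluster 202 CPM [195 to 209] and germ-like nuclei 308 CPM, or 48.6 CPM without nuclei over the threshold. The remaining named classes lay from 84.0 CPM in mesonephric mesenchyme-like nuclei and 111 CPM in surface epithelium-like nuclei to 195 CPM in erythroid-like nuclei, with immune-like nuclei at 173 CPM. Without nuclei over the threshold, surface epithelium-like nuclei held 60.8 CPM and immune-like nuclei 104 CPM. The Leydig-like to progenitor-like ratio was 38.0 (log2 5.25), ranging from 15.9 to 46.4, and the Leydig-like to Sertoli-like ratio was 11.7 [11.3 to 12]. An antisense gene within *Gramd1b*, *1700110K17Rik*, stood at 59.2 CPM in Leydig-like and 1.56 CPM in progenitor-like nuclei.

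*Fam129a* held 1797 CPM [1769 to 1825] in Leydig-like nuclei, from 15895 UMIs in 760 of 797 nuclei. Immune-like nuclei held 116 CPM [91.5 to 144], with UMIs in 24 of 68 nuclei, and 184 CPM without nuclei over the automatic doublet threshold. In erythroid-like nuclei (104 CPM, or 194 CPM without such nuclei) 38 of 42 UMIs were in 1 nucleus. Sertoli-like nuclei fell from 37.7 CPM to 10.7 CPM, and endothelial-like nuclei from 92.4 CPM to 3.78 CPM, when nuclei over the threshold were left out. In the same way germ-like nuclei went from 76.7 CPM to 8.95 CPM and pericyte-like nuclei from 102 CPM to 30.3 CPM. Over all kept nuclei the surface epithelium-like class was lowest at 11.2 CPM, and without nuclei over the threshold the *Pax8* cluster was, at the 3.0 CPM given above. Progenitor-like nuclei held 17.8 CPM [14.9 to 21.0], mesonephric mesenchyme-like nuclei 17.5 CPM and the largest unnamed cluster 16.7 CPM, whose intervals overlap. The ratio of Leydig-like to progenitor-like levels was 101 (log2 6.66), ranging from 27.1 to 147.

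**Figure D1:**
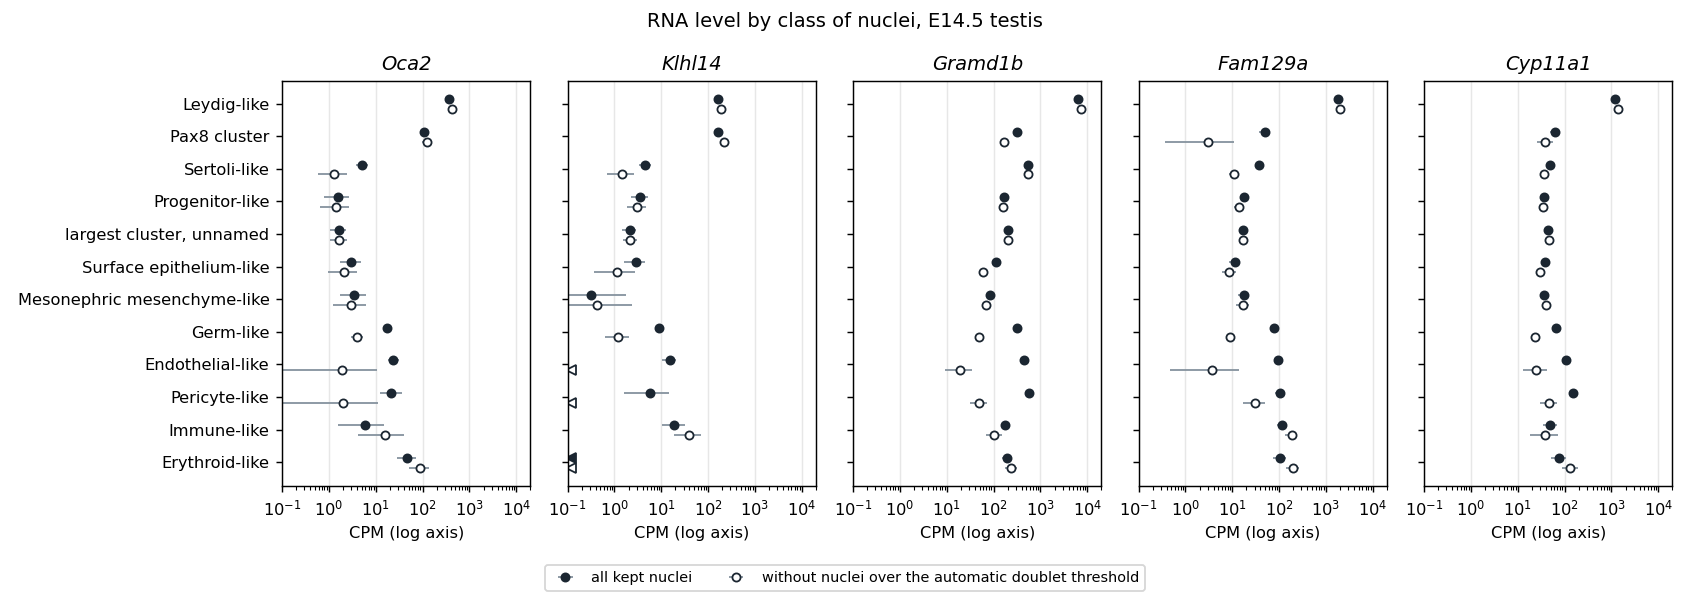
RNA level of the 4 genes and *Cyp11a1* in CPM on a log axis for the 12 clusters, with exact 95% Poisson intervals, over all kept nuclei (filled) and without nuclei over the automatic doublet threshold (open). Triangles at the left edge mark 0 UMIs. *Klhl14* is as high in the *Pax8* cluster (161 CPM) as in Leydig-like nuclei (159.6 CPM), and *Gramd1b* in Sertoli-like nuclei (540 CPM) does not move when nuclei over the threshold are left out.

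Against the contrast that chose them, the 4 genes ranked 63 (*Oca2*), 82 (*Fam129a*), 130 (*Klhl14*) and 148 (*Gramd1b*) by fold among 14353 genes whose UMIs in the pair of classes came to 20 or more, and *Cyp11a1* ranked 160. All 4 were at least 2-fold higher, as were 16.0% of the genes tested, and that count follows from how they were chosen. Leydig-like nuclei, 11.1% of all kept nuclei, held 82.8% of the UMIs of *Oca2*, 72.5% of *Klhl14*, 74.5% of *Gramd1b* and 84.4% of *Fam129a*. Per kb of gene, the Leydig-like level was 26.4 CPM for *Gramd1b*, 11.9 for *Fam129a*, 1.53 for *Klhl14* and 1.24 for *Oca2*, against 57.2 for *Cyp11a1*. Single nuclei varied widely. Between percentiles 10 and 90 of Leydig-like nuclei, UMI counts ran from 10 to 138 for *Gramd1b* (median 61), from 2 to 44 for *Fam129a* (median 15), from 0 to 10 for *Oca2* (median 3) and from 0 to 5 for *Klhl14* (median 1).

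Co-detection with *Cyp11a1* was read after each nucleus was thinned to 2000 UMIs, since deeper nuclei show more genes. Of the 1168 nuclei with *Cyp11a1*, 28.5% also had *Oca2*, 15.2% *Klhl14*, 69.2% *Gramd1b* and 54.5% *Fam129a*. Of the 5955 nuclei without it, the shares were 1.07%, 1.19%, 28.1% and 3.95%. The Leydig-like class held 667 of the 1168 nuclei with *Cyp11a1*, so these shares in part restate class membership. Outside that class, the 501 nuclei with *Cyp11a1* had the genes in 2.99%, 1.80%, 30.1% and 7.98%. The 5828 without it had them in 0.57%, 0.89%, 26.8% and 2.71%. Intervals overlapped for *Klhl14* and *Gramd1b* but not for *Oca2* and *Fam129a*. Nuclei over the automatic doublet threshold are included in these shares, and their part in the differences was not tested. Ambient RNA was not removed, and its part was not tested either. Without nuclei over the threshold *Cyp11a1* held 45.7 CPM in the largest unnamed cluster, 33.8 CPM in progenitor-like and 23.5 CPM in germ-like nuclei. A *Cyp11a1* UMI outside the Leydig-like class is thus a detection and was not tested as expression. Read the other way, *Cyp11a1* was found in 83.9% of the nuclei with *Oca2*, 73.0% of those with *Fam129a*, 71.4% of those with *Klhl14* and 32.6% of those with *Gramd1b*, the gene with the widest RNA. Without thinning, where more nuclei pass, 28.0%, 22.7%, 72.6% and 42.3% of *Cyp11a1*-positive nuclei had the 4 genes in the first order. Germ-like nuclei, read beside them as another lineage, gave thinned shares of 0.82%, 0.82%, 13.7% and 4.42% with nuclei over the automatic doublet threshold included, at a median depth of 15504 UMIs per nucleus against 9576 in Leydig-like nuclei. The Leydig-like shares were 44.0%, 23.6%, 97.1% and 84.8%.

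Within the Leydig-like class *Oca2*, *Gramd1b* and *Fam129a* were found more often in nuclei with more *Cyp11a1*. For these genes the intervals of the lowest and highest *Cyp11a1* groups did not overlap. From 127 nuclei with 0 *Cyp11a1* UMIs through 171 with 1 and 269 with 2 to 3 to 227 with 4 or more, *Oca2* was seen in 24.4%, 39.2%, 48.0% and 53.7%. *Klhl14* was seen in 15.0%, 20.5%, 26.4% and 27.3%, with intervals of the first group (9.25 to 22.4) and the last (21.6 to 33.6) that overlapped. Its mean count rose from 0.197 [0.127 to 0.291] to 0.396 [0.319 to 0.487] UMIs per nucleus, and these intervals did not overlap. *Fam129a* rose from 60.6% to 84.2% at the first step and was then at 90.7% and 91.6%. *Gramd1b* was already at 89.8% with no *Cyp11a1* and at 100% with 4 or more, while its mean count rose from 6.80 to 15.8 UMIs per nucleus. The share of nuclei over the automatic doublet threshold was 23.6%, 25.1%, 24.9% and 5.29% in the same order, and its part in these trends was not tested. In the largest unnamed cluster *Gramd1b* was seen in 29.3% [27.5 to 31.3] of nuclei without *Cyp11a1* and 23.7% [18.3 to 29.9] of those with 1 UMI of it. These groups differ by 1 UMI in data with ambient RNA left in, so they cannot show whether the trend holds there. Before thinning, 682 of 797 Leydig-like nuclei (85.6%) held 3 or 4 of the genes. Outside the class 119 of 6401 nuclei did, 82 of which lay over the automatic doublet threshold.

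**Figure D2:**
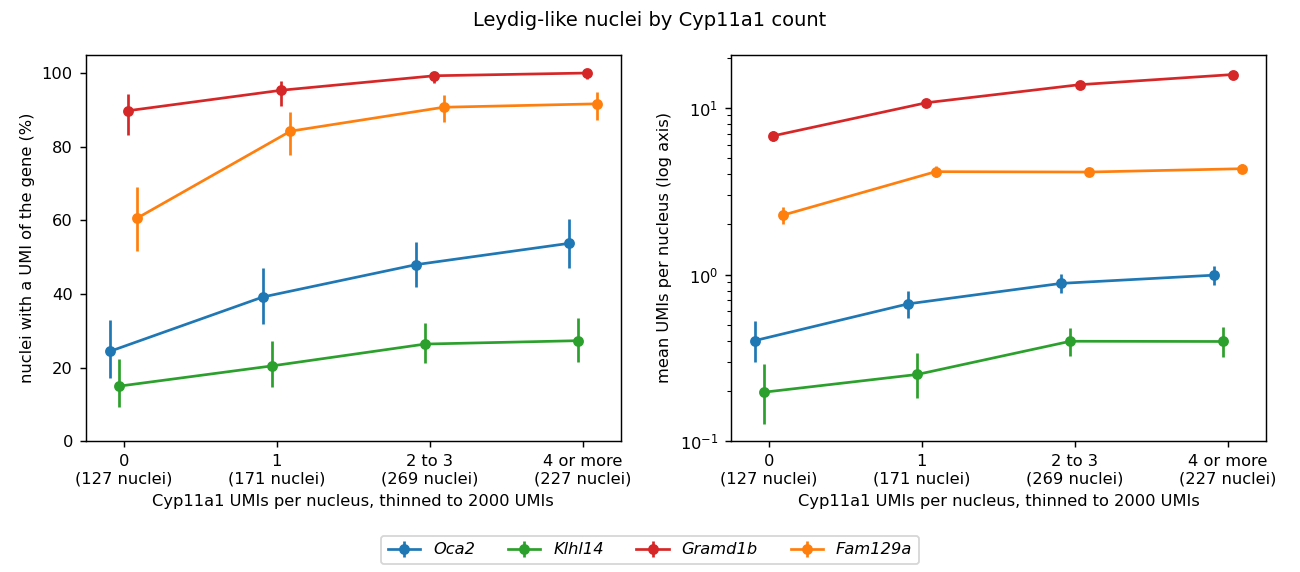
Leydig-like nuclei by their *Cyp11a1* count after thinning to 2000 UMIs. The left panel gives the share of nuclei with a UMI of each gene with exact 95% binomial intervals, and the right panel the mean UMIs per nucleus on a log axis with exact 95% Poisson intervals. *Oca2* goes from 24.4% to 53.7% and *Fam129a* from 60.6% to 91.6% between the first group and the last.

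The wider families of the 4 genes were followed in lists, in the same contrast, where 16.0% of all genes tested were at least 2-fold higher and 15.5% lower. Of 10 genes of melanin synthesis only 2 had 20 UMIs over both classes, and *Tyr*, *Tyrp1* and *Dct*, the pigment enzymes, had at most 3 UMIs in either class. *Slc24a5*, a melanosome ion exchanger, was 0.47-fold of the progenitor-like level, and *Mitf*, the melanocyte regulator, was 1.92-fold. Of 29 tested genes of the Kelch family and CUL3, 2 were at least 2-fold higher and 0 lower, with a median log2 ratio of 0.09, the same as the 0.09 over all genes tested. These were *Klhl23* (2.96-fold) and *Klhl4* (2.18-fold [0.80 to 6.85], at 1.7 CPM), the latter past the minimum only through its Leydig-like count. Both were higher elsewhere than in Leydig-like nuclei, *Klhl23* in Sertoli-like nuclei (390 CPM) and *Klhl4* in endothelial-like nuclei (277 CPM). The list counts were not made against the largest unnamed cluster. There *Klhl23* held 81.0 CPM, against 191 CPM in Leydig-like nuclei, and *Klhl4* held 1.43 CPM, so *Klhl4* was short of 2-fold. Of 12 genes of the GRAM domain family and cholesterol transfer, 5 were higher and 1 lower, beside 16.0% and 15.5% of all genes, with a median of 0.33. *Scarb1*, which takes up cholesterol from lipoproteins, was 21.0-fold and *Star*, which brings it into the mitochondrion, 13.9-fold higher. *Star* was also a marker that named the Leydig-like class, so its place in this count was fixed in part by the naming. Members of the GRAM domain family differed in direction, with *Gramd2* at 3.22-fold and *Gramd3* at 2.41-fold, named here after their values were seen, *Gramd1c* at 0.15-fold and *Gramd1a*, short of the 2-fold call, at 0.66-fold. Against the largest unnamed cluster *Gramd3* was short of 2-fold too (90.4 and 52.0 CPM). *Gramd2* (5.43 and 0.81 CPM) and *Gramd1c* (2.49 and 6.84 CPM) kept their direction there. Of 8 tested genes of the Niban family and the stress response, 3 were higher and 1 lower, beside the same shares, with a median of 0.62. Of the 3, 2 passed the minimum of 20 UMIs only through their Leydig-like counts. They included *Sesn2* (9.59-fold) and *Ppp1r15a* (3.31-fold), both induced by stress. In Leydig-like nuclei these held 7.46 and 2.15 CPM, and in the largest unnamed cluster 1.43 and 0.99 CPM. Neither was particular to Leydig-like nuclei. *Sesn2* held 7.42 CPM in Sertoli-like and 6.82 CPM in germ-like nuclei, and *Ppp1r15a* held 5.59 CPM in endothelial-like nuclei. The remaining higher gene, named here after its values were seen, was *Atf4* (2.23-fold, 51.8 and 23.2 CPM). The relative *Fam129b* was at 0.27-fold and the chaperone *Hspa5* at 1.04-fold. For comparison, 10 of 11 tested steroid synthesis genes were higher, with a median of 3.73, which the naming of the class fixed in part, since *Star*, *Hsd3b1*, *Cyp17a1*, *Nr5a1*, *Lhcgr* and *Insl3* were among its markers.

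Over the 10 named classes, the genes whose log2(CPM + 1) pattern was most like each of the 4 were sought among 15216 genes. For *Oca2* they were *Gm36037* (Pearson r of 0.98), *Gm37240*, *Lhcgr*, the receptor for luteinizing hormone, *Gm28382* and *Prkar2b*, a regulatory subunit of protein kinase A. For *Klhl14* they were *Cyp11b1* (0.96), *Cdk18*, *Vcp*, *Iscu* and *Kcnip4*. For *Gramd1b* they were *Acly* (0.97), which makes cytosolic acetyl-CoA, *Adh1*, *Scarb1*, *Gm31641* and the antisense *1700110K17Rik*. For *Fam129a* they were *Slc47a1* (0.96), *Polk*, *Alas1*, the first enzyme of haem synthesis, *Scarb1* and *Per2*. The high Leydig-like level that chose the 4 genes is part of each pattern, so the likeness is a description only. With *Cyp11a1* itself r was 0.93 for *Oca2*, 0.75 for *Klhl14*, 0.93 for *Gramd1b* and 0.92 for *Fam129a*. *Lhcgr* was also a marker that named the Leydig-like class. The classes share 1 library, and small classes carry few UMIs. Patterns were taken over all kept nuclei, with those over the automatic doublet threshold included. Such nuclei held 98.2% of *Oca2* UMIs in endothelial-like, 93.3% in pericyte-like, 87.4% in germ-like and 25.0% in progenitor-like nuclei. Their part in the likeness was not tested. Adding the *Pax8* cluster kept 1 of 5 genes for *Oca2* and 1 of 5 for *Klhl14*, but 5 of 5 for *Gramd1b* and 4 of 5 for *Fam129a*. *Lhcgr* stood at 1024 CPM in Leydig-like nuclei and 44.5 CPM in the *Pax8* cluster, and *Cyp11b1* at 22.7 CPM and 0 UMIs.

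Neighbours on the chromosome were looked up by position after the values above were seen. *Gabrg3*, a GABA receptor subunit 179.9 kb beyond *Oca2*, held 758 CPM in the *Pax8* cluster and 8.70 CPM in Leydig-like nuclei, and was among the genes that led that cluster. Its ratio of Leydig-like to progenitor-like levels was 9.59, from 77 and 7 UMIs. *Gabra5*, the next gene, held 29.1 CPM and 0.339 CPM. *Herc2*, just before *Oca2*, differed less, with 338 CPM in Leydig-like, 201 CPM in the *Pax8* cluster and 182 CPM in progenitor-like nuclei. Around *Klhl14*, *Garem1* was at 0.81-fold and *Asxl3* at 0.23-fold of the progenitor-like level. Around *Gramd1b*, *Clmp* was at 0.19-fold, and *Scn3b* was higher at only 3.84 CPM. Around *Fam129a*, 3 of 4 neighbours were higher in Leydig-like nuclei: *Rnf2*, a Polycomb ubiquitin ligase, by 4.62-fold [4.27 to 5.01], *Edem3*, an enzyme of endoplasmic reticulum quality control, by 4.23-fold [3.87 to 4.63] and *Trmt1l* by 2.34-fold [2.10 to 2.61], against 16.0% of all genes tested.

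**Figure D3:**
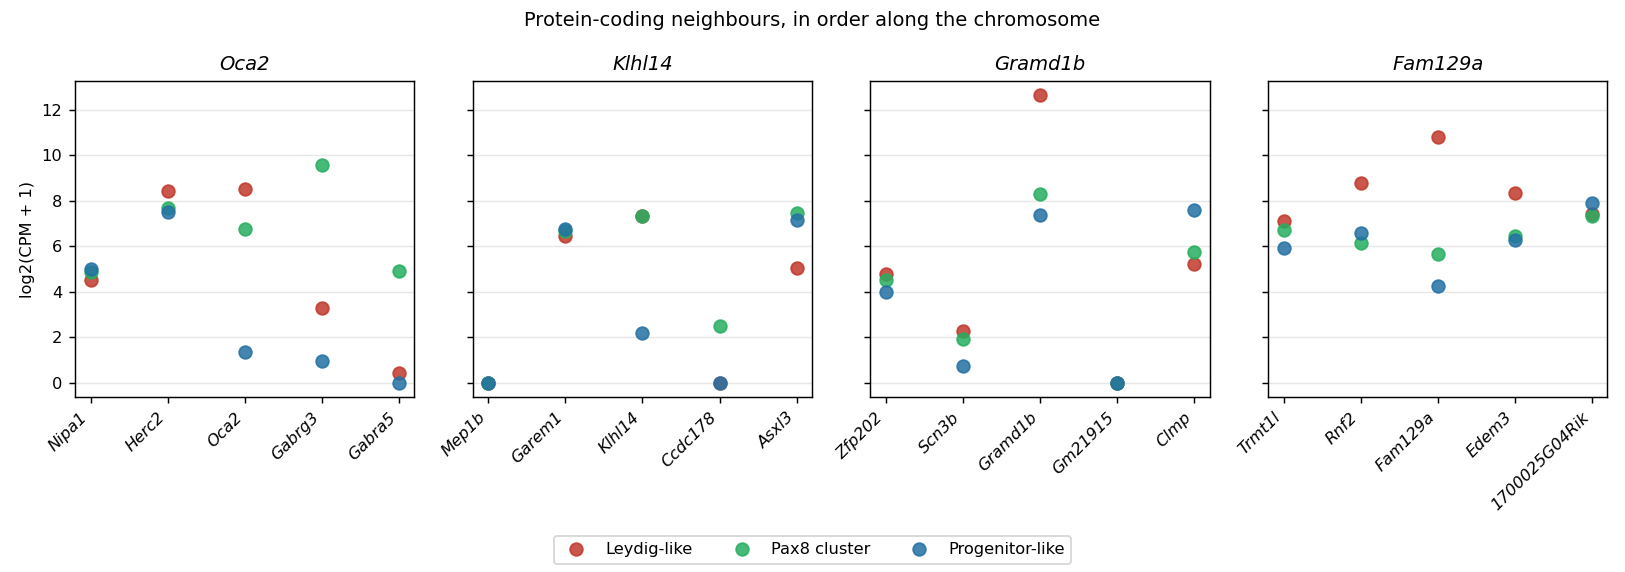
Levels of the 4 genes and the 2 nearest protein-coding genes on each side as log2(CPM + 1), in chromosome order, in Leydig-like nuclei, the *Pax8* cluster and progenitor-like nuclei. *Gabrg3* next to *Oca2* is highest in the *Pax8* cluster (758 CPM), and *Rnf2* and *Edem3* beside *Fam129a* are highest in Leydig-like nuclei (434 and 322 CPM).

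Open chromatin was not used to choose the genes. Peaks were called by the authors over all nuclei together, and classes for this reading were clustered from RNA alone, giving 760 Leydig-like and 817 progenitor-like nuclei. Of 54 peaks within 100 kb of a start of the 4 genes, 28 had at least 20 fragments over both classes. Of these 14 were at least 2-fold higher in Leydig-like nuclei, per 1000000 fragments at peaks of the class (FPM), and 0 were lower. Over all 42119 peaks tested, 10.3% were higher and 19.4% lower. The minimum shaped this count: 10 of the 14 had fewer than the 14 progenitor-like fragments that reach it at equal rates, and so were tested only through their Leydig-like fragments, as were 72.6% of the higher peaks over the whole table. Of the 15 peaks past the minimum at the progenitor-like rate alone, 4 were higher, beside 3.19% of all such peaks. With no minimum for a peak, fragments summed over all peaks of a gene stood in a ratio of 6.55 [3.47 to 13.3] at *Oca2*, from 44 and 13 fragments, 1.76 [1.12 to 2.76] at *Klhl14*, from 40 and 44, 1.54 [1.34 to 1.77] at *Gramd1b* and 1.90 [1.60 to 2.26] at *Fam129a*, with 1.63 [1.42 to 1.88] at *Cyp11a1*. Over the 28067 genes whose windows of the same kind summed to at least 20 fragments, the median ratio was 1.06, and 0.139% were at or above the value of *Oca2*, 4.01% that of *Klhl14*, 7.57% that of *Gramd1b* and 2.83% that of *Fam129a*. The *Oca2* window, with 13 progenitor-like fragments where 14 were needed, passed this minimum only through its Leydig-like fragments. Its share of 0.139% is therefore a description only. Against the largest unnamed cluster, 41 of the 54 peaks could be tested, of which 19 were at least 2-fold higher and 4 lower, 3 of these at *Gramd1b* and 1 at *Klhl14*. Over all peaks tested there, 9.62% were higher and 23.3% lower. Here 14 of the 19 passed the minimum only through their Leydig-like fragments, and of the 26 peaks past it at the rate of the unnamed cluster alone 5 were higher, beside 5.04% of all such peaks. The comparisons share their Leydig-like fragments, so the second is no independent check of the first. The 28 peaks are not independent, since neighbouring peaks of a locus share nuclei and surroundings. With at least 50 fragments asked of a peak, 3 could be tested at *Gramd1b* and 2 at *Fam129a*, of which 1 each was higher, so most of these counts are small.

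At *Oca2* the peak over the start held 19 fragments in Leydig-like and 5 in progenitor-like nuclei, 7.36-fold [2.66 to 25.2] in FPM. It passed the minimum only through its Leydig-like fragments, so that 1 of 1 tested peaks was higher follows from the filter. It is the peak whose bases before the start are printed above. Of the other 3 peaks, those at 24.5 kb before the start, in an exon of *Herc2* (10 and 2 fragments), and at 61.0 kb inside the gene (11 and 1 fragments), had too few for the minimum of 20. So had the last, 52.1 kb inside the gene, with 4 and 5 fragments, 1.55-fold [0.31 to 7.20].

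*Klhl14* had 6 peaks and none over its start. The tested peak, intergenic and 58.8 kb upstream, held 18 and 6 fragments, 5.81-fold [2.21 to 17.9], and passed the minimum in the same way. It held 1 fragment in the *Pax8* cluster, which had 142917 fragments at peaks against 1130823 in Leydig-like nuclei. That count is too small to set beside the Leydig-like level. Within 1 kb of the downstream annotated start lay 34 fragments in Leydig-like and 27 in progenitor-like nuclei, 2.31-fold [1.35 to 3.97] per fragment of the class. The upstream start had 8 in each class, 1.83-fold [0.60 to 5.60], an interval that holds the value of the downstream start.

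At *Gramd1b* 8 of 18 tested peaks were higher, beside 10.3% of all peaks tested, all 8 within the gene and none at its outermost starts. Of the 8, 5 passed the minimum only through their Leydig-like fragments, and of the 10 peaks past it at the progenitor-like rate 3 were higher. The peak over the first start held 10 and 24 fragments, 0.81-fold [0.34 to 1.75], and the one over the last start 9 and 29, 0.60-fold [0.25 to 1.30]. Among tested peaks the largest ratios, all at peaks that passed only through their Leydig-like fragments, were at chr9:40390692-40391572 (17 and 7 fragments, 4.70-fold), chr9:40336340-40337271 (14 and 6, 4.52-fold) and chr9:40297788-40298651 (18 and 8, 4.36-fold). These peaks were as open in Sertoli-like nuclei, at 21.5, 14.1 and 21.5 FPM, against 15.0, 12.4 and 15.9 FPM in Leydig-like nuclei. The deepest of the 8, chr9:40460520-40461375, held 37 and 24 fragments, 2.99-fold [1.74 to 5.22], and is the peak whose middle is printed above. It stood at 32.7 FPM in Leydig-like and 26.4 FPM in Sertoli-like nuclei. A peak over an internal start, at chr9:40392067-40393104, held 16 and 14 fragments, 2.21-fold [1.01 to 4.90]. The peak with the most fragments in the window, chr9:40455919-40456789, held 45 and 100 and was at 0.87-fold [0.60 to 1.25], so peaks at 70.4 and 75.0 kb inside the first start differed in their contrast.

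At *Fam129a* 4 of 8 tested peaks were higher, beside the same 10.3%. Of the 4, the start peak alone was past the minimum at the progenitor-like rate, where 1 of 5 peaks was higher, and held 32 and 21 fragments, 2.95-fold [1.65 to 5.38]. Peaks in its introns held 25 and 4 fragments 48.4 kb inside the gene, 12.1-fold [4.18 to 47.9], and 37 and 9 fragments at 89.1 kb, 7.96-fold [3.77 to 18.8], the latter being the peak printed above. The 48.4 kb and 89.1 kb peaks held no fragment in the *Pax8* cluster, where 3 fragments come to 21.0 FPM. Leydig-like nuclei held 22.1 and 32.7 FPM at these peaks, so the depth of the cluster does not settle whether it was lower. The peak over the start of *Rnf2* held 94 and 158 fragments, 1.15-fold [0.88 to 1.5], although *Rnf2* RNA was 4.62-fold higher.

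**Figure D4:**
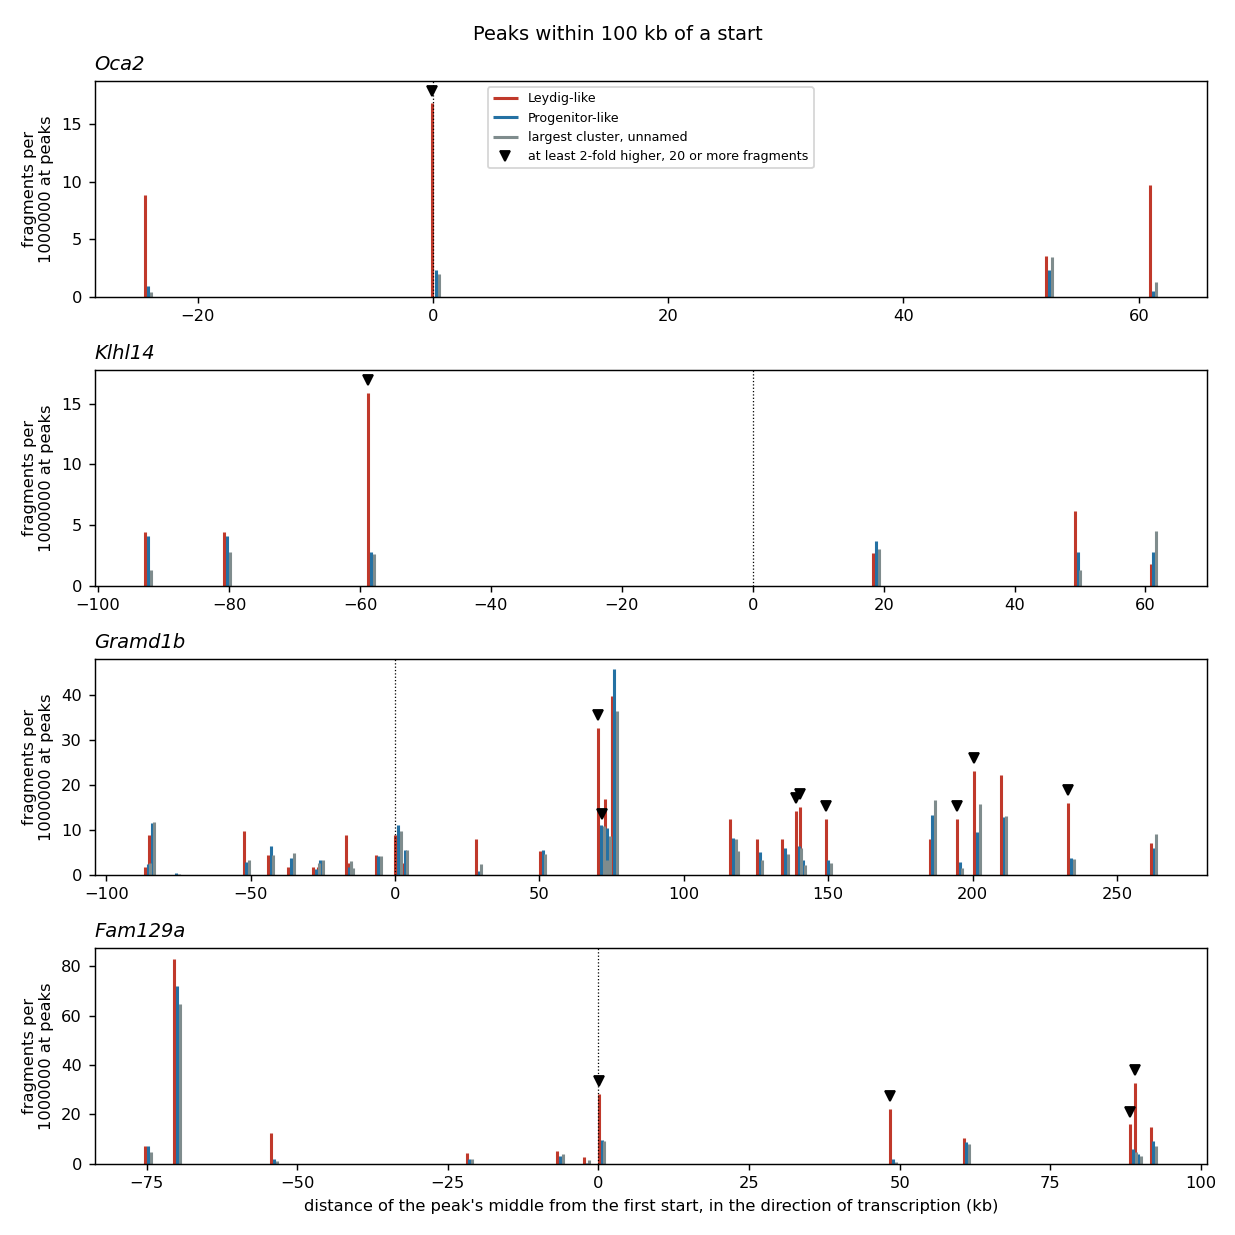
Fragments per 1000000 at peaks for every peak within 100 kb of a start of each gene, by distance of the peak's middle from the first start in kb, in Leydig-like, progenitor-like and largest unnamed cluster nuclei. Black triangles mark the 14 peaks at least 2-fold higher in Leydig-like nuclei with 20 or more fragments, which at *Gramd1b* lie inside the gene away from the dotted line at its first start.

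Among the 13 higher peaks of *Oca2*, *Gramd1b* and *Fam129a*, 3 held the NR5A1 letters in their middle 200 bases, all at *Gramd1b*, 3 held GATA, 2 AGGTCA, 1 CREB and 0 AP-1. Over all 4319 higher peaks the NR5A1 share was 30.4% and the GATA share 15.8%. The higher peak of *Klhl14* was not searched. Counts over 13 peaks are too small to set beside those shares.

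Fragments were also counted over whole gene lengths. They are not set beside the Leydig-like to progenitor-like RNA contrast, which chose the genes. Per 1000000 fragments of a class, *Gramd1b* held 487 [462 to 513] in Leydig-like and 161 [150 to 172] in progenitor-like nuclei, with 258 [243 to 273] in Sertoli-like nuclei, the class with its second RNA level. *Fam129a* held 236 [219 to 255] and 107 [98.2 to 116]. *Klhl14* held 47.5 [40.0 to 56.0] in Leydig-like, 27.9 [23.7 to 32.7] in progenitor-like and 55.2 [35.0 to 82.8] in *Pax8* cluster nuclei, the last from 23 fragments. *Oca2* held 90.3 [79.9 to 102] in Leydig-like, 40.2 [35.0 to 45.9] in progenitor-like and 134 [101 to 174] in *Pax8* cluster nuclei. Over *Oca2* the *Pax8* cluster thus exceeded Leydig-like nuclei by 1.49-fold [1.09 to 1.99], although its *Oca2* RNA was 0.29-fold [0.24 to 0.35] of theirs. Over *Cyp11a1* the cluster held 16.8 [6.75 to 34.6] against 80.9 in Leydig-like nuclei.

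**Figure D5:**
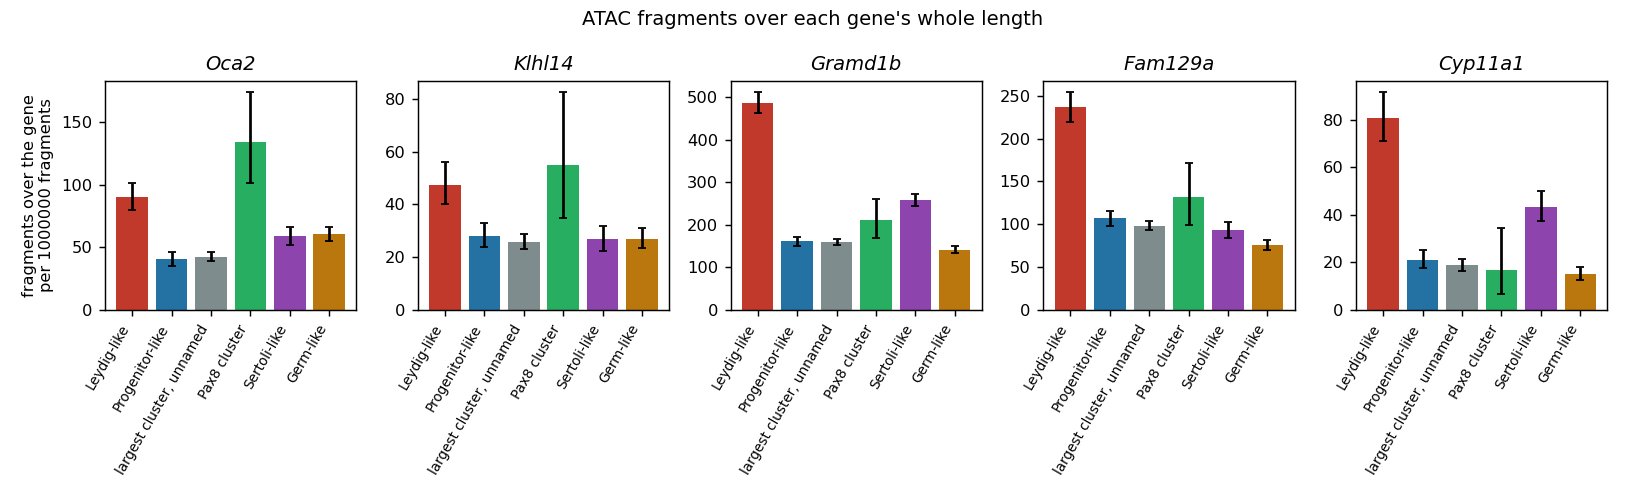
ATAC fragments over the whole length of each gene per 1000000 fragments of a class, with exact 95% Poisson intervals, in 6 classes clustered from RNA alone. The *Pax8* cluster stands at or above Leydig-like nuclei over *Oca2* (134 and 90.3) and *Klhl14* (55.2 and 47.5) and below them over *Gramd1b* (211 and 487) and *Fam129a* (132 and 236).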

How the data were processed

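Nuclei of E14.5 mouse testes gave 1 RNA and 1 ATAC library. The authors ran Cell Ranger ARC 2.0.1 (mm10) and deposited raw counts before quality and doublet filters: UMIs per gene, transposase cuts per peak, and a list of unique fragments with counts of read pairs (1.09 per fragment on average).

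The 4 genes, the gene lists and the rules were chosen with earlier results of these data known. Nuclei were kept by the study's thresholds (over 500 genes, under 10% mitochondrial, under 10% ribosomal and under 0.5% haemoglobin UMIs, over 20% of fragments at peaks, 250 to 25000 fragments at peaks). Its limit on fragments at blacklist regions was not applied here. Scrublet in scanpy 1.11.5 scored doublets, and the highest 6.13% were removed by rank. The study's own doublet caller was not used here and ambient RNA was not removed. Seurat 5.3.0 clustered RNA (30 components) and ATAC jointly at a resolution of 0.3, and RNA alone for the peak values. Clusters were named by the highest mean z score of their markers, with 80 peaks near the genes left out of clustering. CPM are UMIs summed per class over the class total. Levels have exact Poisson and shares exact Clopper-Pearson intervals, and ratios exact conditional binomial intervals. Thinning left out 75 of 7198 nuclei with under 2000 UMIs. With 1 library there is no test between samples and no p-value. Features needed 20 counts over both classes, and 2-fold was the call. Genes named from lists were the 2 highest and 2 lowest tested ratios, and the genes most like each member the 5 of highest Pearson r among those of at least 100 UMIs. Promoter sequences are from RefSeq on GRCm38. The scripts were tested on simulated data.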

Additional observations from a re-analysis of the deposited data

How the results depend on the processing

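No alternative reversed the direction of a Leydig-like to progenitor-like ratio. With clusters from ATAC alone the log2 ratios were 4.87 for *Oca2*, 4.84 for *Klhl14*, 3.99 for *Gramd1b* and 4.76 for *Fam129a*, and with clusters from RNA alone 6.30, 4.38, 4.93 and 5.59. At a cluster resolution of 0.6 they were 6.58, 4.66, 4.82 and 5.69. With no doublet removal *Oca2* stood at 6.99, *Gramd1b* at 4.70 and *Fam129a* at 5.93. With doublets removed by the automatic threshold before clustering *Klhl14* stood at 6.19 and *Gramd1b* at 5.14, and with minimums of 1000 genes and 1000 fragments *Gramd1b* at 4.68. Alternatives added after the data were seen gave 6.24 for *Klhl14* and 4.96 for *Gramd1b* against the largest unnamed cluster, and 5.54 for *Gramd1b* and 7.20 for *Fam129a* when nuclei over the automatic threshold were left out of the same clusters. The other settings moved a ratio by less than its interval, and the cause of these shifts was not tested. The comparison class changed with most of them: it was made of 755 nuclei in the reported values, 817 from RNA alone, 2686 from ATAC alone, 2263 at the resolution of 0.6, 2353 with no doublet removal, 2271 with the automatic threshold before clustering and 2233 with the higher minimums. Subtracting the germ-like level as background gave no value, since progenitor-like nuclei lay below it over all kept nuclei. Without nuclei over the automatic threshold, progenitor-like nuclei lay below germ-like nuclei for *Oca2* (1.43 and 3.98 CPM) and above them for *Klhl14* (3.03 and 1.18), *Gramd1b* (155 and 48.6) and *Fam129a* (13.9 and 8.95), and a subtraction of those levels was not run. Peaks at least 2-fold higher numbered 2 at *Oca2* and 2 at *Klhl14* when cuts were counted in place of fragments. With at least 50 fragments they numbered 0 at *Oca2*, 0 at *Klhl14*, 1 at *Gramd1b* and 1 at *Fam129a*, where fewer peaks could be tested. At a fold of 3 they numbered 4 at *Gramd1b* and 2 at *Fam129a*, and with doublets by the automatic threshold 2 at *Klhl14*. The genes most like each of the 4 kept 12 of 20 with log2(CPM + 10) and 11 of 20 with the *Pax8* cluster included. The *Pax8* cluster was found under each of the 6 settings with RNA in the clustering that were compared, and was named supporting-like under 3 of them. No paired analysis was possible because each assay has 1 library. Depth limits the peak counts: the Leydig-like class had 1130823 fragments at peaks, where 3 fragments come to 2.65 per 1000000.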

Other observations

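Of 6 genes of the adrenal cortex, 4 had 20 UMIs over both classes, and all 4 were at least 2-fold above progenitor-like nuclei, beside 16.0% of all genes. Of these, 3 reached the minimum only through their Leydig-like counts, so the count is a description, and *Akr1b7* (18 and 0 UMIs) and *Cyp11b2* (0 and 1) were not tested. *Mc2r*, the receptor for adrenocorticotropic hormone, stood at 30.4-fold, *Cyp11b1* at 29.2-fold, *Mrap* at 26.6-fold and *Cyp21a1* at 19.0-fold. A UMI of this list was found in 398 of the 797 Leydig-like nuclei. *Gramd1b* stood at 7304 CPM [7230 to 7380] in those nuclei and at 4967 CPM [4897 to 5038] in the other 399. *Fam129a* stood at 1989 CPM [1950 to 2028] and 1544 CPM [1504 to 1584], and *Cyp11a1* at 1292 and 1033 CPM. *Oca2*, at 376 CPM [359 to 393] and 356 CPM [337 to 375], and *Klhl14*, at 164 CPM [153 to 175] and 154 CPM [142 to 167], had overlapping intervals. The nuclei with such a UMI were deeper, with a median of 10743 UMIs against 8305, and 21.1% against 17% lay over the automatic doublet threshold. The part of depth and doublets in these differences was not tested, and this split was chosen after the data were seen.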
